A study of Mus musculus with 58 samples.

Results

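Melanopsin (Opn4), the other non-visual opsins Opn3 and Opn5, and the transcription factor Eomes were followed in the mouse retina over a day of light and dark, with and without diabetes. The 4 genes were the rows of the deposited count table that carried these symbols, out of 52459 rows. Opn4, Opn3 and Eomes were among the 19120 genes with a median above 4 normalized counts over all libraries, the filter used for the tests, and Opn5 was not. A normalized count is the number of reads counted on a gene divided by the library's DESeq2 size factor, and it is the level used here unless another scale is named. All 58 libraries came from single retinas of 4-month-old male mice raised under 12 h of light and 12 h of dark. There were 30 control retinas from littermates of the C57/BL/6 background and 28 diabetic retinas from hyperglycemic mice heterozygous for Ins2Akita (labelled C57BL/6-Ins2Akita/J), whose diabetes comes from a mutated insulin gene. Each genotype was sampled at ZT1, 5, 9, 13, 17 and 21, where lights come on at ZT0 and go off at ZT12, with 4 to 6 retinas in a group and dim red light during the dark phase. The mice were perfused with cold PBS before the retinas were dissected. The study asked whether diabetes alters the daily rhythm of retinal gene expression.

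Melanopsin is the light-sensing protein of the intrinsically photosensitive retinal ganglion cells (ipRGCs), a small set of output neurons that set the circadian clock to daylight and drive the pupil reflex. Light on melanopsin activates G proteins of the Gq family and phospholipase C, which open TRPC channels, a cascade closer to that of insect photoreceptors than to that of rods and cones. Eomes, also called Tbr2, is a T-box transcription factor needed for the formation and upkeep of ipRGCs and is found in some displaced amacrine cells as well. Opn3 (encephalopsin) is an opsin expressed widely outside photoreceptors, and Opn5 (neuropsin) is an ultraviolet-sensitive opsin found in a subset of ganglion cells and in other tissues.

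In the Gencode M21 annotation of GRCm38, Opn4 (ENSMUSG00000021799) spans chr14:34590618-34600142 on the minus strand and Eomes (ENSMUSG00000032446) spans chr9:118478212-118486132 on the plus strand. Opn3 (ENSMUSG00000026525) lies at chr1:175662421-175692776 and Opn5 (ENSMUSG00000043972) at chr17:42556783-42611395, both on the minus strand, and all 4 genes are protein coding. The RefSeq promoter table matched 3 of the 4 genes (Opn4, Opn3 and Eomes). The promoters of Opn4 and Eomes are shown because these 2 genes were called rhythmic together in the control retinas, as described further on. Each sequence holds the 250 bases before the RefSeq start site on GRCm38.p6, read 5′ to 3′ on the gene's own strand, with a match to TATANA in capitals. The Opn4 window is chr14:34600143-34600392 and the Eomes window is chr9:118477939-118478188.
Opn4: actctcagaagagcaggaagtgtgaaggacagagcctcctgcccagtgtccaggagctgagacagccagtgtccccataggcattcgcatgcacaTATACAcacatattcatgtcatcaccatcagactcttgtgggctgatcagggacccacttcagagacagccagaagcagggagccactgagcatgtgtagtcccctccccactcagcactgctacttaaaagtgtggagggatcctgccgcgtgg
Eomes: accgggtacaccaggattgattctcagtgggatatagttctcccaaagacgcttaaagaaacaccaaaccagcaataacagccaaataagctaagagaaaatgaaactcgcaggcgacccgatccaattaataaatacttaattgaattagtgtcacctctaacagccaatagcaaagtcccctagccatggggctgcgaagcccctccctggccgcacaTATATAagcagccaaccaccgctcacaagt

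The TATA box letters TATANA began at -30 from the Eomes start site and at -155 from the Opn4 start site, and 22.6% of 32817 promoter windows of the same length held them on one strand or the other. Neither window, nor that of Opn3, held the E-box CACGTG or the E-prime box CACGTT, which shares its first 5 letters with the E-box, on either strand. The ROR element core AGGTCA, the D-box TTATGTAA and the T-box core AGGTGT, searched on both strands, did not occur in them either. These letters occurred in 6.02% (E-box), 3.85% (E-prime box), 14.0% (ROR element core), 0.817% (D-box) and 11.8% (T-box core) of all windows. The GC content was 54.8% for Opn4, 46.4% for Eomes and 70.4% for Opn3, against a median of 52.4% over all windows.

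The libraries held 7773117 to 22147398 counted reads. Replicates differed by more than sampling noise in each of 113 pairs, the smallest chi-square per degree of freedom being 1.86. The retina's defining markers were present throughout, with all 14 ganglion cell markers past the filter and a summed level of 10706 to 17046 normalized counts in the control and 11352 to 18295 in the diabetic retinas. Summed pigment epithelium markers ranged from 258 to 3493 normalized counts. Summed lens markers exceeded 20000 in 3 control libraries (replicate 6 at ZT1, replicate 5 at ZT17 and replicate 2 at ZT21) and reached at most 664 in the others. The library least like the rest of its group was replicate 4 of control ZT9, with a correlation of 0.9889.

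All 4 genes sat far below the cone opsins. Per length, in RPKM (reads per kb of exon per 1000000 counted reads), Opn4 had a level of 1.12 ± 0.24 (SD, n = 30) in control and 1.21 ± 0.303 (n = 28) in diabetic retinas, and Eomes had 1.57 ± 0.334 and 1.59 ± 0.265. Opn3 had 0.227 ± 0.141 and 0.28 ± 0.0977 on the same scale, and Opn5 had 0.0676 ± 0.0624 and 0.0725 ± 0.0619. In control retinas the level per length of Opn4 was thus 4.93 times that of Opn3 and 16.6 times that of Opn5. The cone opsins Opn1sw (132 RPKM in control and 126 in diabetic retinas) and Opn1mw (56.6 and 50.4) were 118 and 50.5 times the Opn4 level in control and 104 and 41.7 times in diabetic retinas. Rgr, a photoisomerase of pigment epithelium and Müller glia, and Rrh (peropsin), a pigment epithelium opsin, had 11.9 and 3.27 in the control retinas.

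**Figure D1:**
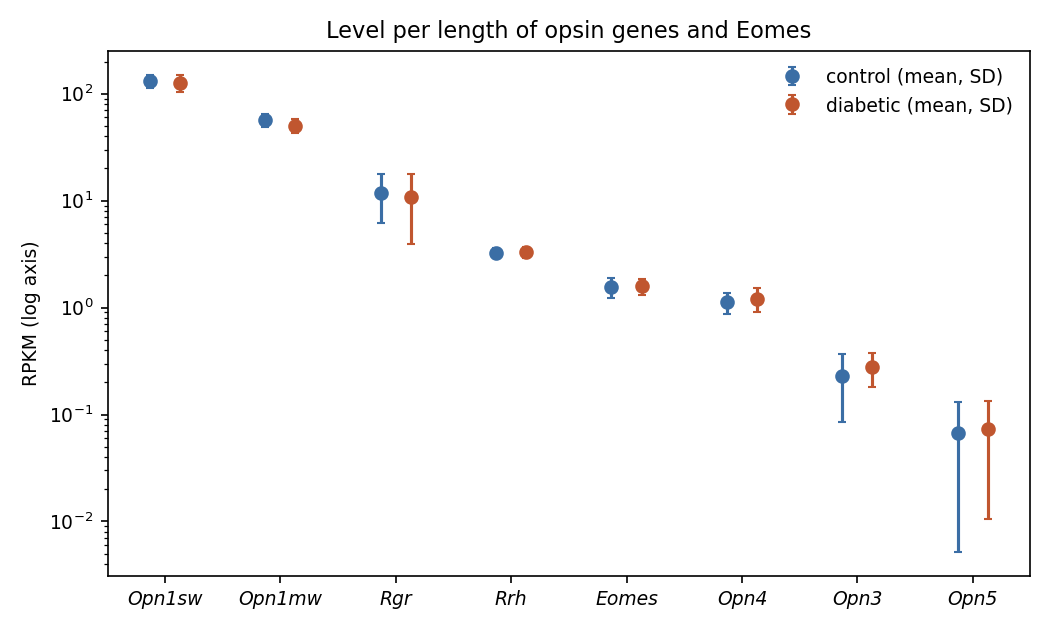
Level per length (RPKM, log axis) of the cone opsins Opn1sw and Opn1mw, of Rgr and Rrh, and of Eomes, Opn4, Opn3 and Opn5; points are means over 30 control and 28 diabetic retinas and bars are SDs. The 2 genotypes sit side by side at every gene, and Opn4 lies 118 times below Opn1sw in control retinas.

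The depth behind the members differed widely. Opn4 had 21 to 112 reads and Eomes 32 to 167 reads in a library, none of which was at 0. Opn3 had 0 to 17 reads, with 1 control library (ZT1, replicate 1) at 0, and Opn5 had 0 to 6 reads, with 7 control and 6 diabetic libraries at 0. A count of 0 still allows up to 3 reads in a library. Opn3 shares 461 of its 1913 exon bases (24.1%) with Chml on the same strand, whose mean was 176 normalized counts against 6.99 for Opn3, and how the counting divided reads on shared bases is not given in the sources used here. Opn3 values are therefore uncertain. Eomes shares 118 exon bases (2.84%) with the antisense gene Gm33460, which had a mean of 2.53 normalized counts in all libraries, and Opn4 shares 130 (4.39%) with the antisense gene Gm49012, which was not analysed here. These are whole-retina libraries, in which fewer cells of a type and less RNA per cell cannot be told apart.

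Diabetic and control retinas had similar melanopsin levels over the whole day. Opn4 ranged from 30.8 to 74.3 normalized counts (median 46.3) in the 30 control retinas and from 28.8 to 87.8 (median 51.2) in the 28 diabetic retinas. The 2 ranges overlapped almost entirely. The log2 difference (diabetic minus control) was 0.10 with a 95% interval of -0.08 to 0.27, a 1.07-fold level (edgeR quasi-likelihood test, adjusted p = 0.673). Eomes ranged from 58.2 to 131 (median 91.4) in control and from 59.3 to 131 (median 96.1) in diabetic retinas, again with full overlap. Its log2 difference was 0.02 with a 95% interval of -0.12 to 0.16 (edgeR, adjusted p = 0.951).

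Opn3, the opsin with fewer reads, ranged from 0 to 15.8 normalized counts (median 5.44) in control and from 3.77 to 13.6 (median 7.28) in diabetic retinas. The diabetic range lay within the control range. Its log2 difference was 0.30 with a 95% interval of -0.07 to 0.67 (edgeR, adjusted p = 0.461). Opn5, tested only without the filter on low counts, had a median of 1.56 normalized counts in control and 1.62 in diabetic retinas and a log2 difference of 0.07 (95% interval -0.57 to 0.70, edgeR adjusted p = 0.967). None of the 3 genes past the filter was called over all time points, where 572 of 19120 genes (2.99%) were called at an adjusted p under 0.05, 303 higher and 269 lower in diabetic retinas. None of the 3 had an unadjusted p under 0.05 in this fit, and the DESeq2 Wald test called none of them.

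Within single time points the same held. At ZT5, in the middle of the light phase, Opn4 read 42.4, 33.7, 38.2, 40.4, 48.9 and 46.6 normalized counts in the 6 control retinas and 40.7, 52.5, 59.0, 56.8 and 49.3 in the 5 diabetic retinas. Of the diabetic retinas, 4 were above every control and 1 lay among them. The log2 difference was 0.30 (95% interval -0.08 to 0.68, edgeR unadjusted p = 0.123, adjusted p = 0.905), the largest of the 6 for Opn4. Eomes at ZT5 read 86.6, 82.6, 58.2, 103, 86.3 and 91.6 in control and 99.4, 101, 88.5, 131 and 96.0 in diabetic retinas. Its groups overlapped, with a log2 difference of 0.28 (95% interval -0.04 to 0.59, edgeR adjusted p = 0.883), which was 0.174 without diabetic replicate 4.

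Opn3 at ZT1, an hour after lights on, read 0, 9.38, 1.16, 1.87 and 9.16 normalized counts in the control and 9.6, 11.1, 5.75, 6.6 and 12.0 in the diabetic retinas. The control retinas fell into a low and a high set, the high set overlapping the diabetic values. This was the time point and gene with the smallest unadjusted p among the members (log2 difference 0.88, 95% interval -0.03 to 1.78, edgeR unadjusted p = 0.0572, adjusted p = 0.928). The difference was 0.612 without control replicate 1 and 1.318 without control replicate 2. None of the 3 genes was called at any of the 6 time points, where the called share of all genes tested was 0.0105% (ZT1), 0.0209% (ZT5), 0.00523% (ZT9), 0.0% (ZT13), 0.167% (ZT17) and 0.0% (ZT21). At ZT13 and ZT21 edgeR called 0 genes and DESeq2 called 1 and 2. An unadjusted edgeR p under 0.05 was reached by 852 and 892 genes, below the share of 0.05 of all genes tested that chance alone gives.

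**Figure D2:**
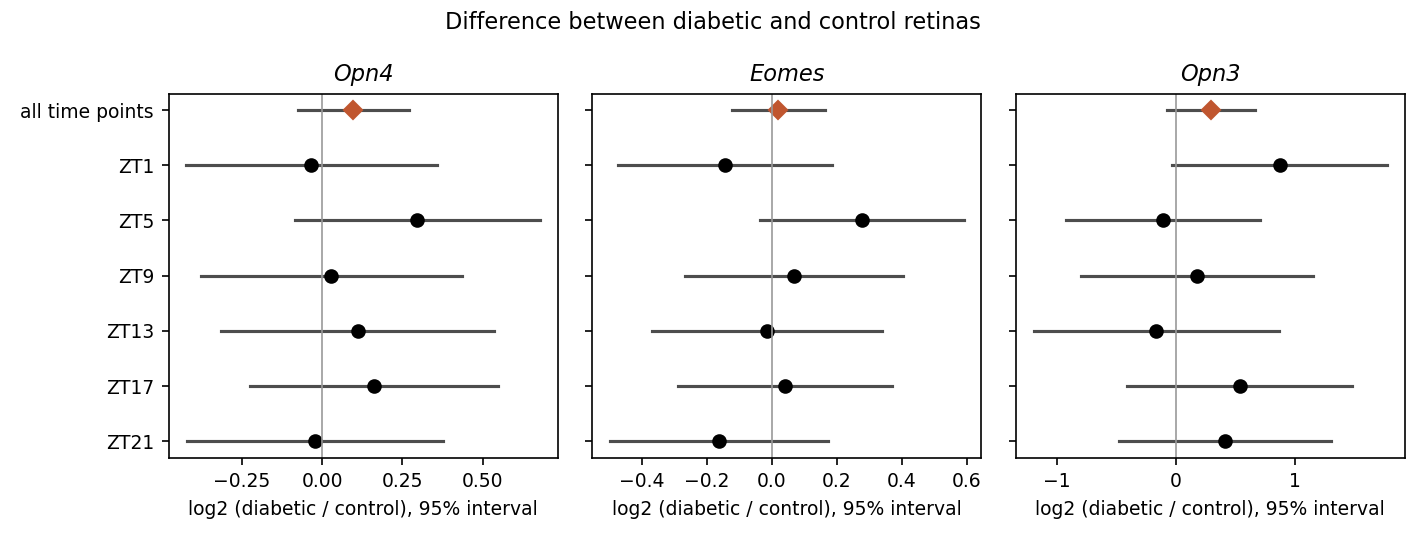
log2 ratio of diabetic to control level with its 95% interval (edgeR) for Opn4, Eomes and Opn3, over all time points (diamond) and at each ZT (circles); each panel has its own axis. Every interval includes 0, and those of Opn3 are the widest.

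Over the day, Opn4 and Eomes were highest in the later dark phase in both genotypes. In control retinas Opn4 had its lowest group mean, 41.7 ± 5.58 (SD, n = 6) normalized counts, at ZT5 and its highest, 58.1 ± 12.6 (n = 5), at ZT17. The 5 control retinas at ZT17 read 66.2, 56.0, 74.3, 52.7 and 41.6, of which 4 were above every ZT5 control. In the 14 control retinas of the dark phase the level was 30.8 to 74.3 (median 54.3), and 11 of them were above the light-phase median of 42.9. Opn4 passed the test for a 24 h rhythm in control retinas (p = 0.0402, a permutation p of a re-implemented empirical JTK_CYCLE), with a relative amplitude of 17.5% ± 4.66 (SE) of its daily mean and an acrophase at ZT19.2 ± 1.01 h.

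Eomes followed the same course in control retinas. Its lowest group mean was 84.7 ± 14.7 (SD, n = 6) at ZT5, with 107.2 ± 16.6 (n = 5) at ZT17 and its highest, 110.1 ± 22.7 (n = 4), at ZT21. The 4 control retinas at ZT21 read 112, 78.2, 120.0 and 131, of which 3 were above every ZT5 control. Eomes also passed the rhythm test (permutation p = 0.0445), with a relative amplitude of 14.1% ± 5.03 (SE) and an acrophase at ZT19.3 ± 1.35 h, within the error of that of Opn4. So 2 of the 3 genes tested were called rhythmic in control retinas, at a p under 0.05 with the fold between the highest and the lowest library above the limit the study set, a rule that called 21.8% of all 19120 genes. The median relative amplitude of all genes was 7.07%. Opn3, with fewer reads and no call, had a fitted amplitude of 17.7% ± 16.5 (SE) in control retinas, so a large fitted amplitude alone does not mark a rhythm.

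**Figure D3:**
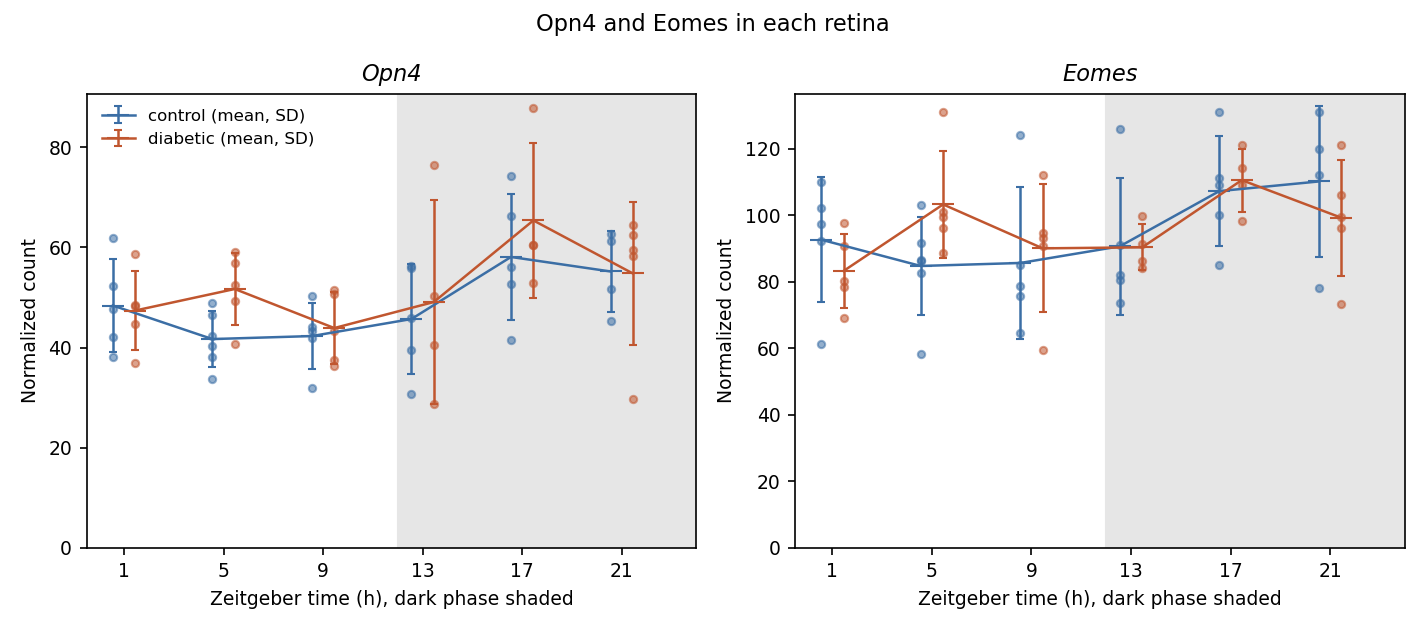
Normalized counts of Opn4 and Eomes against zeitgeber time; each dot is 1 retina, horizontal marks and bars are the mean and SD of a group of 4 to 6 retinas, and the dark phase is shaded. Group means of both genes are highest at ZT17 or ZT21 in each genotype, and the spread within a group covers much of the daily range.

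These calls rested on few libraries and on the unadjusted p that the rule uses. Adjusted over all genes tested, the p was 0.194 for Opn4 and 0.206 for Eomes. A cosine model in edgeR gave Opn4 an unadjusted p of 0.0038 and an adjusted p of 0.0392. For Eomes the same model gave 0.0248 unadjusted and 0.128 adjusted. Opn4 was no longer called without any 1 of 9 of the 30 control libraries (replicate 1 at ZT1, replicates 2 and 3 at ZT5, replicates 1, 2, 3 and 4 at ZT17, replicates 3 and 4 at ZT21), where p was 0.0517 to 0.0765. Eomes was no longer called without any 1 of 18 (replicates 1, 2, 4 and 6 at ZT1, 1, 2 and 6 at ZT5, 1, 2 and 3 at ZT9, 1 at ZT13, 1, 2, 3 and 4 at ZT17, and 1, 3 and 4 at ZT21), where p was 0.0517 to 0.0891. The Opn4 call remained without each of the 3 control libraries rich in lens markers and without replicate 4 of ZT9, while that of Eomes was lost without replicate 6 of ZT1 (permutation p = 0.0602).

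In diabetic retinas Opn4 had its lowest group mean, 43.9 ± 7.16 (SD, n = 5) normalized counts, at ZT9 and its highest, 65.4 ± 15.4 (n = 4), at ZT17. The 4 diabetic retinas at ZT17 read 60.4, 87.8, 52.9 and 60.4, all above the 5 at ZT9 (43.4, 37.5, 51.6, 50.8 and 36.3). They overlapped diabetic groups of other time points, such as ZT5 with values up to 59.0. At ZT13, just after lights off, the 4 diabetic retinas spread from 28.8 to 76.5. The rhythm test gave p = 0.0606 (permutation), a relative amplitude of 13.1% ± 6.48 (SE) and an acrophase at ZT18.4 ± 1.91 h, and the call was reached without any 1 of 5 libraries (replicate 5 at ZT1, 3 and 4 at ZT9, 1 at ZT13 or 2 at ZT21), where p was 0.0178 to 0.0497. Eomes in diabetic retinas had a relative amplitude of 4.97% ± 4.57 (SE) and a permutation p of 0.158. It averaged 110.5 ± 9.49 (SD, n = 4) at ZT17 and 103.2 ± 16.1 (n = 5) at ZT5.

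None of the 3 genes was called rhythmic in diabetic retinas, where the rule called 23.9% of all genes. A call in one genotype and not in the other does not show that the rhythms differed, and the direct test of the difference passed for none of the members. The interaction of genotype with the 24 h cosine in edgeR gave an unadjusted p of 0.806 for Opn4, 0.32 for Eomes and 0.319 for Opn3, each with an adjusted p of 1.0. No gene of the 19120 (0.0%) passed this test. An unadjusted p under 0.05 was reached by 657 genes, below the share of 0.05 that chance alone gives. The interaction over the 6 time points taken as separate groups also called 0, with 514 under 0.05, again below that share.

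Opn3 had no called rhythm. It was highest in control retinas at ZT5, with 9.18 ± 5.02 (SD, n = 6) normalized counts, and lowest at ZT1, with 4.31 ± 4.57 (n = 5). In diabetic retinas its highest group was ZT21, with 9.32 ± 3.45 (n = 5), and its lowest ZT13, with 5.92 ± 0.945 (n = 4). The rhythm test gave a permutation p of 0.69 in control and 0.101 in diabetic retinas, the latter reaching 0.0381 without replicate 3 of ZT1 and 0.0306 without replicate 4 of ZT21. Opn5 averaged between 1.01 and 2.97 normalized counts in the control groups and between 1.45 and 2.99 in the diabetic groups, its highest mean falling at ZT13 in both. Below the filter, Opn5 could not be called, and its permutation p was 0.69 in control and 0.634 in diabetic retinas.

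**Figure D4:**
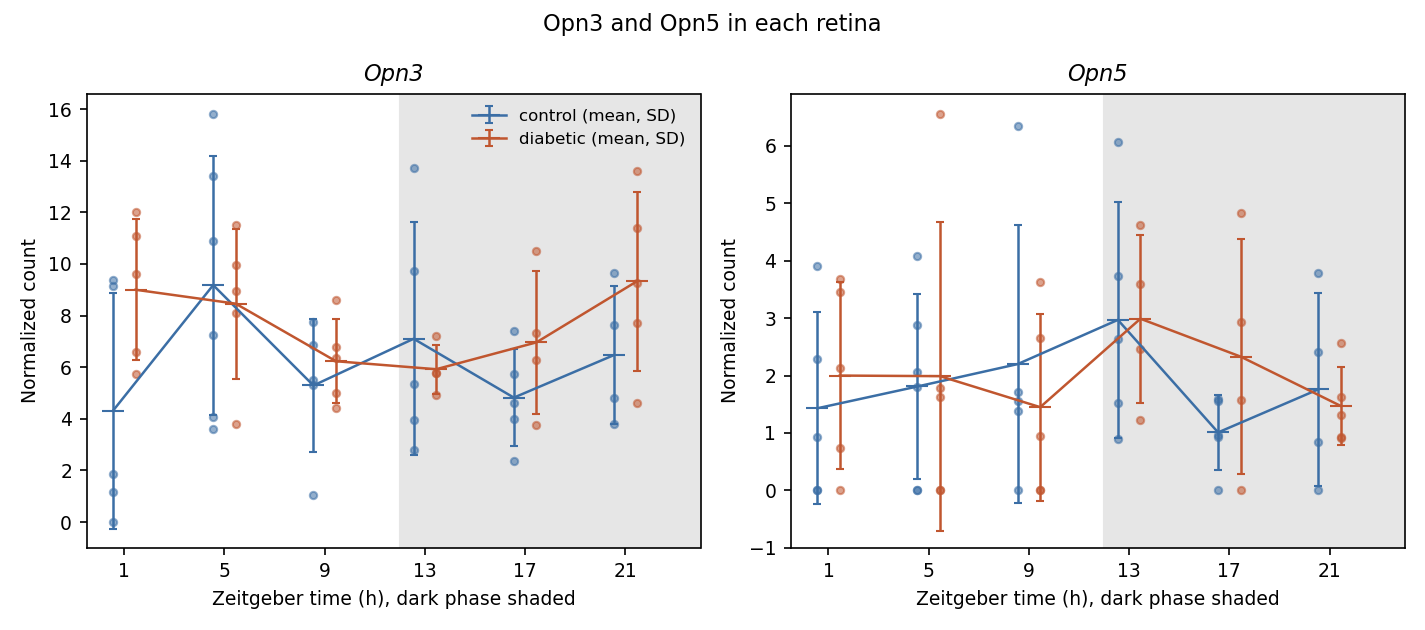
Normalized counts of Opn3 and Opn5 against zeitgeber time, drawn as for the plot of Opn4 and Eomes, with 1 dot for each retina and the mean and SD of each group. Opn5 dots reach 0 in 13 of 58 retinas, and neither gene separates the genotypes.

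Ordered by their means, the 12 groups formed a continuous series for every member. For Opn4 the order ran from diabetic ZT17 (65.4 normalized counts) through control ZT17 (58.1), control ZT21 (55.2), diabetic ZT21 (54.8), diabetic ZT5 (51.7), diabetic ZT13 (49.1), control ZT1 (48.4), diabetic ZT1 (47.4), control ZT13 (45.7), diabetic ZT9 (43.9) and control ZT9 (42.3) to control ZT5 (41.7). For Eomes it ran from diabetic ZT17 (110.5) and control ZT21 (110.1) down to control ZT5 (84.7) and diabetic ZT1 (83.2). In each of the 4 genes all 11 pairs of neighbours in the order differed by less than the SD of their groups.

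The summed level of the ganglion cell markers averaged 12861 ± 1170 (SD, n = 5) normalized counts at ZT9 and 15006 ± 1488 (n = 4) at ZT21 in control retinas, and 13125 ± 1536 (n = 5) at ZT9 and 15640 ± 2028 (n = 4) at ZT17 in diabetic retinas. Of the 14 markers, 3 were called rhythmic in control retinas (the POU factor gene Pou4f3, the neuronal tubulin gene Tubb3 and the growth cone gene Gap43) and 3 in diabetic retinas (the stathmin gene Stmn2, the neurofilament gene Nefm and the synuclein gene Sncg), each with its acrophase in the dark phase. That is close to the 21.8% and 23.9% of all genes called, of which 49.2% and 51.8% peaked in the dark. Summed amacrine cell markers had their lowest mean at ZT9 and their highest at ZT17 in both genotypes, from 17452 ± 1473 (n = 5) to 19353 ± 1036 (n = 5) in control and from 17524 ± 1456 (n = 5) to 19728 ± 1385 (n = 4) in diabetic retinas. At ZT13, also in the dark, the diabetic mean was 17751, below the 18184 of ZT5, and of the 10 amacrine markers 3 were called rhythmic in control and 2 in diabetic retinas. Of 7 bipolar cell markers, 5 were called rhythmic in control and 6 in diabetic retinas, all with acrophases in the dark. None of the 14 ganglion cell markers was called between genotypes, and their median log2 difference was 0.03 against 0.001 over all genes. Divided by the summed ganglion cell markers of its library, an alternative chosen after seeing the data, Opn4 in control retinas had a permutation p of 0.0493 and Eomes one of 0.155, and in diabetic retinas the values were 0.402 and 0.527. The part of the ganglion cell signal in the rhythm of Opn4 and Eomes was not tested beyond this. Of 10 amacrine cell markers 1 was called between genotypes, Chat, the acetylcholine synthesis gene of starburst amacrine cells, which was higher in diabetic retinas (log2 difference 0.20, edgeR adjusted p = 0.0404), while the median of the 10 was -0.006. Lower in diabetic retinas were 2 of 4 cone markers, 1 of 4 microglial markers and 1 of the 2 lens markers tested, where 2.99% of all genes were called in either direction. The lens gene was Cryaa (log2 difference -5.01, edgeR adjusted p = 0.00097). The median of the summed lens markers was 14 normalized counts in control and 11 in diabetic retinas. The part of the 3 control libraries with more than 20000 lens counts in this call was not tested. Of 7 pigment epithelium markers tested, 2 were called rhythmic in control and 5 in diabetic retinas. Means of their summed level, which were not tested, ran from 816 ± 531 (n = 5) at ZT1 to 2030 ± 575 (n = 4) at ZT21 in control retinas. In diabetic retinas they ran from 300 ± 39 (n = 5) at ZT5 to 2108 ± 972 (n = 4) at ZT13. At ZT5 the control retinas averaged 885 ± 299 (n = 6). The part of these cells in the members' values was not tested.

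Opn4 and Eomes deviated together between retinas of the same group, as ganglion cell markers did with each of them. With the group means removed from log2(normalized count + 1), Pearson's r was 0.414 over 58 libraries (permutation p = 0.00154, adjusted over 6 pairs of members 0.00924) and Spearman's rank correlation was 0.464 (permutation p = 0.00059, adjusted 0.00354). Pearson's r was 0.389 without the 2 libraries farthest from the median, 0.587 within the control and 0.257 within the diabetic retinas. The difference between the genotypes in r was not tested. Treated the same way, the 14 ganglion cell markers had a median r of 0.538 with Opn4 and 0.632 with Eomes, both above the r of the pair, against 0.056 and 0.035 over all genes compared. For the other 5 pairs of members r lay between -0.092 and 0.14, each with an adjusted permutation p of 0.55, and Opn3 and Opn5, which enter all 5, have few reads.

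**Figure D5:**
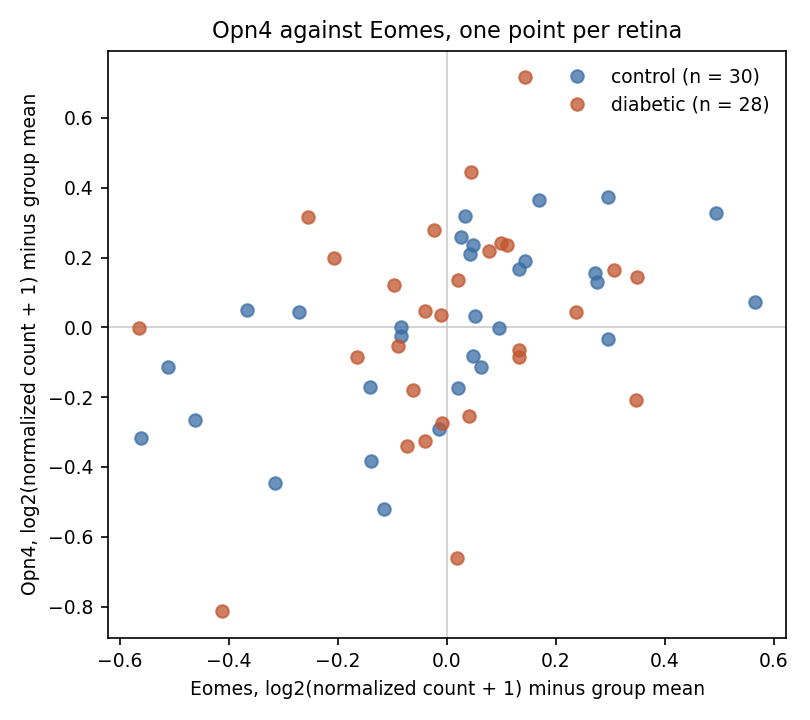
Deviation of Opn4 against deviation of Eomes from the mean of the retina's own group, both as log2(normalized count + 1), with 1 point for each of 30 control and 28 diabetic retinas. Points rise from lower left to upper right with wide scatter (r = 0.414).

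Among 12948 genes with a mean of at least 50 normalized counts, those most like Opn4 over the 58 libraries were 2900011O08Rik (r = 0.773), App (0.755), the amyloid precursor protein gene, Adora1 (0.752), the adenosine A1 receptor gene, Cnn3 (0.748), a calponin gene, and Ndrg2 (0.738). Those most like Eomes were Sncg (0.77), 1500009C09Rik (0.769), the RNA-binding protein gene Rbpms2 (0.765), the calretinin gene Calb2 (0.754) and the cytoglobin gene Cygb (0.754). Eomes itself stood at place 819 in the order for Opn4. With group means kept, the 14 ganglion cell markers had a median r of 0.606 with Opn4 and 0.662 with Eomes, against 0.039 and 0.03 for all genes compared. These values share the libraries, their depth and their make-up of cells, and are given as a description. For Opn3 the highest r was 0.461 (Pole3, a DNA polymerase subunit gene) and for Opn5 0.438 (Ccdc30), in counts too sparse to order genes by.

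The genes of the melanopsin cascade, from Gq proteins to channels and the kinase and arrestins that shut the pigment off, numbered 10, and all passed the filter. Trpc6, a subunit of the TRPC cation channels, was the 1 gene of them called between genotypes over all time points, beside 2.99% of all genes. It ranged from 121.8 to 279.3 normalized counts (median 222.8) in the control and from 211.6 to 386.2 (median 302.9) in the diabetic retinas, and 20 of the 28 diabetic retinas were above the highest control. It was 1.36-fold higher in diabetic retinas (log2 difference 0.45, 95% interval 0.33 to 0.57, edgeR adjusted p = 9.39e-07). The log2 difference ran from 0.21 at ZT1 to 0.53 at ZT5 and was above 0 at all 6 time points, none of which passed alone. The channel subunit gene Trpc7 did not pass, with a log2 difference of -0.02 (edgeR adjusted p = 0.948). The median log2 difference of the 10 genes was 0.02. Many of these genes are expressed in other retinal cells, so their whole-retina levels are not those of ipRGCs.

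By the same rhythm rule, 3 of the 10 cascade genes were called in control and 4 in diabetic retinas, each with its acrophase in the dark, beside 21.8% and 23.9% of all genes called and 49.2% and 51.8% of those peaking in the dark. Arrb1, a beta-arrestin gene, was called in both (permutation p = 0.0147 in control and 0.0241 in diabetic retinas), with acrophases at ZT19.6 and ZT18.9. Gna14, a Gq family subunit gene, was called in both genotypes (permutation p = 0.0363 in control and 0.0212 in diabetic retinas). In control retinas it ranged from 71.2 to 85.2 normalized counts at ZT17, the group with the highest mean, and from 39.8 to 70.4 at ZT9, the lowest. All 5 ZT17 retinas were above the 5 of ZT9. The order of the time points differed between the genotypes' means. At ZT21 control retinas averaged 53.8 ± 12.8 (SD, n = 4), next to a mean of 53.1 at ZT9, and in diabetic retinas the highest mean was 71.6 ± 10.5 (n = 5) at ZT1, with 58.6 ± 11.1 (n = 4) at ZT17. Prkcz, an atypical protein kinase C gene, was called with acrophases at ZT19.0 (permutation p = 0.0402) and ZT19.3 (permutation p = 0.0164). The p in control retinas passed 0.05 without 1 library in 12 of 30 cases for Gna14 and 13 of 30 for Prkcz, and that of diabetic retinas did so in 1 of 28 cases for Arrb1. With adjusted permutation p-values none of these 3 genes was called (0.108 and 0.132 for Arrb1, 0.183 and 0.122 for Gna14, 0.194 and 0.103 for Prkcz, control first). With the fold taken between time point means, Arrb1 and Prkcz were lost in both genotypes. In an edgeR cosine model, Gna14 was lost in both (unadjusted p = 0.0839 and 0.107) and Prkcz in diabetic retinas (0.111). With a replicate block in that model, Gna14 passed in control retinas (unadjusted p = 0.0426). In diabetic retinas Gna14 (0.11) and Prkcz (0.0955) stayed lost.

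Of 5 other genes enriched in ipRGCs, none was called between genotypes, where 2.99% of all genes were, and their median log2 difference was 0.06. Rasgrp1, a Ras activator found in a subset of ipRGCs, was called rhythmic in both genotypes (permutation p = 0.000302 in control and 0.00602 in diabetic retinas). In control retinas its lowest group mean was 273.5 ± 29.9 (SD, n = 5) normalized counts at ZT9 and its highest 349.7 ± 26.4 (n = 4) at ZT21. All 4 ZT21 retinas were above the highest ZT9 retina. Its acrophases, at ZT19.0 and ZT19.6, stood beside those of Opn4 at ZT19.2 and ZT18.4. Nmb, a neuropeptide gene, had its acrophase in the light at ZT9.12 in control retinas (permutation p = 0.0102), and Irx1, a homeobox gene, had one at ZT18.8 (permutation p = 0.0363, over 0.05 without 1 library in 11 of 30 cases). In diabetic retinas the gene of the neuropeptide PACAP, Adcyap1, was called (permutation p = 0.0125) with an acrophase near ZT24. Tbx20, a T-box factor gene downstream of Eomes in ipRGCs, was called in neither genotype. The rule thus called 3 of the 5 genes in control and 2 in diabetic retinas, beside 21.8% and 23.9% of all genes. With adjusted permutation p-values only Rasgrp1 in control retinas was still called (0.00905), its value in diabetic retinas being 0.0546, and those of Nmb (0.0857) and Irx1 (0.183) in control and Adcyap1 (0.0864) in diabetic retinas were lost. The diabetic call of Rasgrp1 was also lost with the fold taken between time point means, and Nmb was called in diabetic retinas by the edgeR cosine model (unadjusted p = 0.0241).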

How the data were processed

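RNA was isolated from single retinas and sequenced after ribosomal RNA depletion, so reads from unspliced RNA may be included. Per the methods and the submitters' processing notes, the authors checked reads with FastQC, aligned them to GRCm38.p5 with STAR (2.7.4a) under Gencode M15 and counted them per gene with HTSeq (0.11.1), and the deposited table holds these raw read counts; their counting mode and strand setting are not given in the sources used here. The authors also used DESeq2 (1.26.0).

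Groups were taken from the labels, and p-values measure the spread between retinas; the methods describe the retinas as biological replicates, without saying whether any 2 came from 1 mouse. Genes with a median above 4 normalized counts (DESeq2 size factors) over all libraries were tested with edgeR (4.0.16) quasi-likelihood fits in R (4.3.3): TMM scaling, genotype alone for all time points, 12 groups for single time points, and genotype by 24 h cosine and sine terms for differences in rhythm, with Benjamini-Hochberg adjustment over all genes tested. Rhythm was tested with a re-implementation of empirical JTK_CYCLE with asymmetry search (30 waveforms, 1000000 shuffled series), and acrophase and amplitude came from a cosine fit. Level per length used the exon bases of Gencode M21. Correlations used 100000 shuffles within groups. DESeq2 (1.42.0) was an alternative. The tests were tried on simulated counts whose differences and amplitudes were larger than those of the 3 members past the filter, so effects of the members' size were not tried. Intervals are at 95% and cover the spread between libraries; the floor of 3 reads covers counting error only.

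The members and gene lists were chosen with earlier results of these data known. Genes named outside the members were the reference opsins, up to 3 genes past the threshold with the smallest p in each list and comparison, with the other cascade and ipRGC genes named where a count needed them, and the 5 genes with the highest r. Some named genes are not reported here.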

Additional observations from a re-analysis of the deposited data

Results flagged for a closer look

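Of 48 groups of 4 to 6 retinas (4 genes, 12 groups each), 3 held a library far from the others of its group. The limits used give about 1 in 20 by chance for normally spread values. Opn4 in diabetic ZT21 was 29.7 normalized counts in replicate 2, against 58.2 in the next lowest of 5 retinas. Opn5 was 6.55 in replicate 3 of diabetic ZT5, against 1.79 in the next highest retina, and 6.35 in replicate 3 of control ZT9, against 1.71. The Opn5 values are 6 reads or fewer, for which that rate was not checked.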

How the results depend on the processing

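The log2 difference of Opn4 over all time points ran from 0.058 to 0.126 and that of Opn3 from 0.256 to 0.371 when each library was left out, and neither was called under any alternative; Eomes ran from -0.001 to 0.039. Trpc6 ran from 0.422 to 0.462 and stayed called. Signs at single time points turned for values near 0: without 1 library Opn4 ran from -0.122 to 0.074 (ZT1), -0.048 to 0.105 (ZT9), -0.172 to 0.289 (ZT13), -0.01 to 0.266 (ZT17) and -0.097 to 0.13 (ZT21), Opn3 from -0.292 to 0.104 (ZT5), -0.077 to 0.384 (ZT9) and -0.395 to 0.151 (ZT13), and Eomes from -0.027 to 0.222 (ZT9), -0.08 to 0.142 (ZT13) and -0.031 to 0.121 (ZT17). The rhythm p ran from 0.0135 to 0.0765 for Opn4 and 0.00908 to 0.0891 for Eomes in control, and from 0.0178 to 0.146 for Opn4 and 0.0306 to 0.168 for Opn3 in diabetic retinas. With adjusted p-values the calls of Opn4 (0.194) and Eomes (0.206) were lost, and relative to ganglion cell markers that of Eomes (0.155); the cause was not tested. The correlation of Opn4 and Eomes passed under each of the 3 alternatives that gave a p, with r from 0.412 to 0.556; without the 2 libraries farthest from the median r was 0.389, with no test.

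Same-numbered control and diabetic retinas of a time point deviated together with r above 0.1 in 19 of 26 pairs (-0.329 to 0.716, median 0.194). Retinas with different numbers were not compared in this way, so these values have no baseline and cannot decide whether a shared number marks a pair. Pairing was to be accepted only with every pair above 0.1, a strict rule. The labels do not say what a number marks, and the fit without a block was kept. With a replicate block, Opn4 turned to 0.07 (ZT1) and 0.015 (ZT21) and Opn3 to 0.122 (ZT5), Opn3 at ZT1 grew from 0.875 to 1.212, no member's call changed, and the genes called numbered 10 at ZT5, 2 at ZT9 and 60 at ZT17.

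Counts over all genes moved most. Without 1 library they ran from 0 to 4 (ZT1), 2 to 8 (ZT5), 0 to 2 (ZT9), 0 to 1 (ZT13), 3 to 96 (ZT17; 3 without diabetic replicate 5 and 96 without diabetic replicate 1), 0 to 1 (ZT21) and 0 to 1 (difference in rhythm). Without a filter they were 1 (ZT1), 3 (ZT9), 1 (ZT21) and 3 (difference in rhythm). DESeq2 called 6 (ZT1), 32 (ZT5), 4 (ZT9), 1 (ZT13), 88 (ZT17) and 2 (ZT21), and time point as a factor gave 919 over all time points. Rhythmic genes numbered 1573 in control and 1967 in diabetic retinas with adjusted p-values, and 2532 and 2710 with the fold taken between time point means. Depth limits Opn3 and Opn5, at 0 to 17 and 0 to 6 reads.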
